A study of Mus musculus with 9 samples.

Results

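The genes described here encode antimicrobial and defence proteins of tears and mucosal surfaces: Lcn2, Ltf, Slpi, Pglyrp1, Bpifa1, Reg3g, Defb1, Defb14, Camp and Pigr. They were chosen by name as a set of 10, with earlier results of these data known. In all, 22180 genes were measured on single-colour expression arrays of whole mouse cornea. Each of the 10 genes had 1 array row annotated with its symbol alone, and that row stood for the gene. The 3 groups were wild type (WT), Dstncorn1 mutant and Dstncorn1 rescued corneas. Dstn encodes destrin, a protein that disassembles actin filaments, and corn1 is a mutant allele of it. The rescued group had the Dstncorn1 mutation too, and its corneal epithelium lacked Srf, the gene for serum response factor, by genetic ablation. There were 3 biological replicates a group, each made by pooling 10 corneas of 5 mice at the age of 58 days. The background was a mix of FVB, Swiss Black, 129, C57BL6/J and A.BY in all groups. All mice, WT included, had intraperitoneal doxycycline from day 28 to day 58. Doxycycline switches tetracycline-controlled transgenes and is also an antibiotic, so every pool came from antibiotic-treated animals. Which promoter drove the Srf ablation is not stated in the labels.

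The surface of the eye is guarded by small proteins that corneal and conjunctival epithelium, the lacrimal gland and arriving leukocytes release. Some of them withhold iron from bacteria, some bind or break bacterial envelopes, and some restrain the host's own proteases. Several are held at a steady level in quiet epithelium, and others are switched on by cytokines, microbial products or wounding.

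The values are log2 intensities, so that a difference of 1 is a 2-fold difference in measured signal. The array medians lay between 6.75 and 6.78, and correlations across the genes were 0.994 to 0.996 between pools of 1 group and 0.966 to 0.99 between pools of different groups, over genes that are not independent replicates. The mean of Dstn was 12.57 (WT), 5.63 (mutant) and 5.62 (rescued), and that of Srf was 9.13, 10.68 and 9.01. Srf was 3.18-fold lower in rescued than in mutant corneas (limma, adjusted p = 0.000841). Between rescued and WT its log2 difference was −0.12 (adjusted p = 0.787), so these whole-cornea values show no loss of Srf against WT. The corneal epithelial markers Krt12 and Aldh3a1 had means of 13.53 or more and 13.39 or more in every group. Within groups the pools differed in their sex-linked genes: 3 Y-linked genes averaged 5.34 and 5.15 in WT replicates 1 and 3, against 9.77 in WT replicate 2 and 7.16 to 9.77 in the mutant and rescued pools.

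The median of all array rows, 6.77, was taken as a low-signal mark. A fold whose lower group mean fell under it is written as at least that fold, because background adds to weak signals. By this measure Lcn2, Ltf, Slpi, Pglyrp1 and Defb1 lay above 6.77 in all 3 groups, Bpifa1, Reg3g and Camp lay below it in all 3, and Defb14 and Pigr crossed it. A call is an adjusted p under 0.05 (limma, Benjamini-Hochberg over all 22180 genes). Whole corneas are bulk samples, in which fewer cells of a type and less RNA per cell cannot be told apart.

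Of the 8 genes with an entry in the RefSeq promoter table (GRCm38.p6), 4 were called higher in mutant than in WT corneas (Lcn2, Ltf, Slpi and Pglyrp1). The 250 bases before their start sites are shown for that reason. Between rescued and mutant corneas only Ltf and Slpi of these 4 were called. In capitals are matches to TTGCNNAA on either strand, a core of the sites bound by C/EBP factors, and to the NF-kB consensus.

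Lcn2: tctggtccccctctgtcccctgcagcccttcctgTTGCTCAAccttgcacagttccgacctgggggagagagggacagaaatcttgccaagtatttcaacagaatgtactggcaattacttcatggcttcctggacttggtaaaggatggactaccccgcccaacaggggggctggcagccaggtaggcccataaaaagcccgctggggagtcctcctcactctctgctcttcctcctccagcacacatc
Ltf: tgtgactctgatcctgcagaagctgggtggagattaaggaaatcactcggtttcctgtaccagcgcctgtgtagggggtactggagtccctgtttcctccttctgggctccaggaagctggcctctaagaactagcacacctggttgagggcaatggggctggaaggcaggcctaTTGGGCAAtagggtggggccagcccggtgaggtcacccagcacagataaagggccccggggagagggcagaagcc
Slpi: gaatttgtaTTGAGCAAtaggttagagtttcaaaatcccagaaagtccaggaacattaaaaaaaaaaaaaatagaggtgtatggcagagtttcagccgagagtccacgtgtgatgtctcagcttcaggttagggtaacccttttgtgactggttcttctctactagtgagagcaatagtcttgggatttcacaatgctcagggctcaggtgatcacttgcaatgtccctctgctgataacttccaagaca
Pglyrp1: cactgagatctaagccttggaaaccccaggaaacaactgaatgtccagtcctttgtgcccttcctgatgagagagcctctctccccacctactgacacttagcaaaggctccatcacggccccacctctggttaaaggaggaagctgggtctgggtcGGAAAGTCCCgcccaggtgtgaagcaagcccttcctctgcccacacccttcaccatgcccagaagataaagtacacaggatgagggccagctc

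These windows lie at chr2:32387740-32387989 on the minus strand for Lcn2, chr9:111019042-111019291 on the plus strand for Ltf, chr2:164356508-164356757 on the minus strand for Slpi and chr7:18884440-18884689 on the plus strand for Pglyrp1. TTGCNNAA, searched on both strands, was found in 3 of the 8 windows, those of Lcn2, Ltf and Slpi, and in 9.56% of 32851 promoter windows of the same length. The NF-kB consensus was found in 2 of the 8, those of Pglyrp1 and Reg3g, and in 3.9% of all windows. The CArG box, the sequence bound by SRF, was found in none of the 8 and in 1.47% of all windows. Defb1 and Defb14 had no entry in the promoter table, so no motif was searched for them. The motifs do not overlap in these windows. A match describes the letters in the window and shows no binding.

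Mutant corneas were compared with WT to ask how these defence genes differ in corneas without normal Dstn. Lcn2, Ltf, Pglyrp1, Slpi and Defb14 were higher in mutant corneas, by 1.97-fold to 6.56-fold, and Defb1 was lower, by 2.84-fold. Reg3g, Camp, Bpifa1 and Pigr did not pass the test. Of the 10 genes, 6 were called, beside 31.6% of all genes: 5 were higher, beside 15.1% of all genes, and 1 was lower, beside 16.5%. All 3 mutant pools lay on 1 side of all 3 WT pools in 6 of the 10 genes, beside 44.7% of all genes: above in 5, beside 21% of all genes, and below in 1, beside 23.7%. The median log2 difference was 0.61 over the 10 genes and −0.02 over all genes. Of the 10 genes, 5 were called with at least a 2-fold difference, as were 5.03% of all genes.

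**Figure D1:**
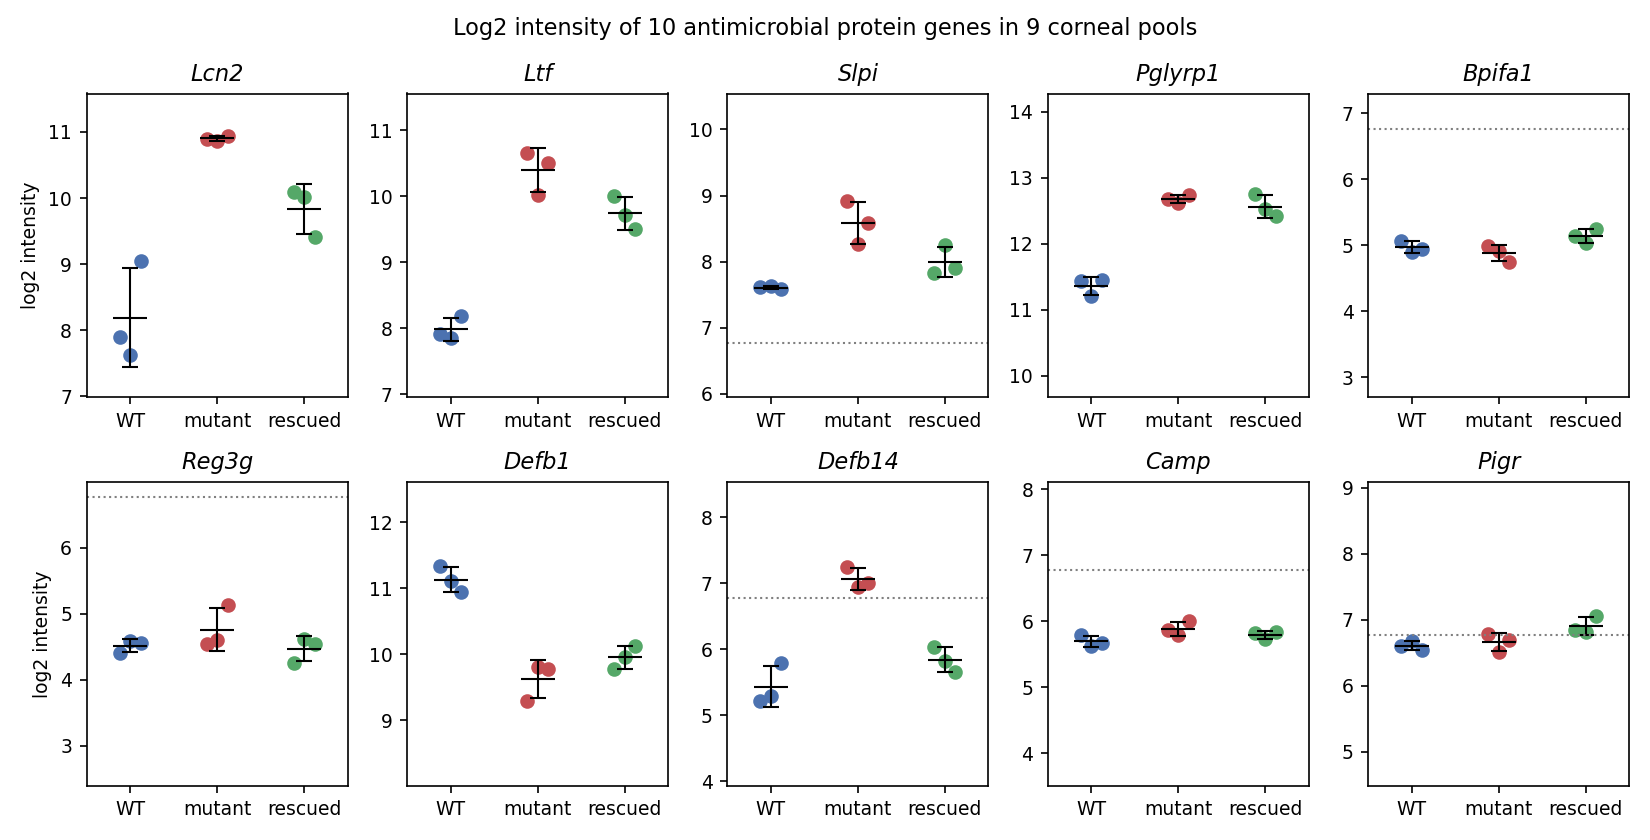
Log2 intensity (vertical axis, each panel spanning the same range of 4.6) of the 10 genes in the 3 WT, 3 mutant and 3 rescued pools; points are pools, the wide bar is the mean and the whiskers are 1 SD (n = 3), and the dotted line is the median of all array rows, 6.77. The mutant pools lie above the WT pools for Lcn2, Ltf, Slpi, Pglyrp1 and Defb14 and below them for Defb1.

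Lcn2 encodes lipocalin 2, which captures bacterial siderophores and so keeps iron from bacteria. Its log2 intensity was 7.89, 7.63 and 9.04 in the WT pools and 10.90, 10.87 and 10.94 in the mutant pools. Every mutant pool lay above every WT pool, and WT replicate 3 stood above the other WT pools, while the mutant pools lay close together (SD 0.75 in WT and 0.03 in mutant, n = 3 each). Lcn2 was 6.56-fold higher in the mutant (log2 difference 2.71, SE 0.32, adjusted p = 0.000148). Without WT replicate 3 the log2 difference was 3.14.

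Ltf encodes lactoferrin, an iron-binding protein of tears and of neutrophil granules. It measured 7.92, 7.85 and 8.18 in the WT pools and 10.66, 10.02 and 10.51 in the mutant pools, with no overlap. The difference was 5.33-fold (log2 difference 2.41, SE 0.18, adjusted p = 8.53e-06). Among 13 other genes of iron handling and siderophore transport, 4 were higher, 4 were lower and 5 did not pass, with a median log2 difference of 0.14. Of all genes, 15.1% were higher and 16.5% lower. Tfrc, the gene for the transferrin receptor, was 3.78-fold higher, and Hmox1, the gene for heme oxygenase 1, was at least 2.7-fold higher. Bdh2, whose product makes a mammalian siderophore, was 1.38-fold lower.

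Pglyrp1 encodes a secreted protein that binds peptidoglycan of bacterial walls. It measured 11.43, 11.20 and 11.45 in the WT pools, and 12.68, 12.61 and 12.74 in the mutant pools. All mutant pools lay above WT and close together, a 2.49-fold difference (log2 difference 1.31, SE 0.10, adjusted p = 9.75e-06). Pglyrp4, a second gene of the family, was 4.45-fold higher (adjusted p = 7.4e-07), while Pglyrp2 and Pglyrp3 had log2 differences of 0.16 and 0.03 and lay below 6.77 in every group.

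Slpi encodes secretory leukocyte peptidase inhibitor, which protects mucosal tissue from neutrophil elastase and is itself antimicrobial. Its WT pools lay within 7.58 to 7.63, and its mutant pools measured 8.91, 8.27 and 8.58. The groups did not overlap, and the spread was larger among the mutant pools (SD 0.32) than among the WT pools (SD 0.02). Slpi was 1.97-fold higher in the mutant (log2 difference 0.98, SE 0.16, adjusted p = 0.00099).

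The 2 beta-defensin genes, which encode small cationic peptides that disrupt microbial membranes, moved in opposite directions. Defb1, known as a constitutive defensin of epithelia, measured 11.33, 11.11 and 10.95 in WT and 9.29, 9.80 and 9.77 in mutant pools. All mutant pools were lower, by 2.84-fold on average (log2 difference −1.51, SE 0.15, adjusted p = 6.15e-05). Defb14, known as an inducible defensin, measured 5.22, 5.29 and 5.79 in WT and 7.25, 6.94 and 7.0 in mutant pools. All mutant pools were higher, by at least 3.1-fold (log2 difference 1.63, SE 0.16, adjusted p = 4.19e-05). Among 29 other beta-defensin genes, none was called between mutant and WT (limma), beside 31.6% of all genes, and 0 had an unadjusted p under 0.05. Their median log2 difference was −0.07, and 26 of the 29 lay below 6.77 in every group.

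The other members had low signals and did not pass the test between mutant and WT. Camp, the gene for the cathelicidin of neutrophils and epithelia, lay within 5.62 to 5.79 in WT and 5.78 to 6.0 in mutant pools (log2 difference 0.19, 95% interval 0.02 to 0.36, adjusted p = 0.0883). Reg3g, the gene for a lectin that kills Gram-positive bacteria in the gut and airway, had a log2 difference of 0.24 (−0.11 to 0.59, adjusted p = 0.288), with mutant replicate 3 at 5.14 and the other 8 pools between 4.25 and 4.62. Bpifa1, the gene for an airway surface protein known as PLUNC, differed by −0.09 (−0.28 to 0.11). Pigr, the gene for the receptor that carries polymeric IgA across epithelia, differed by 0.06 (−0.15 to 0.26), at means of 6.61 and 6.66. Signals this close to background can hide a change, so these intervals describe the measured signal.

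Rescued corneas were next compared with mutant ones to ask how these genes differ once Srf is also ablated in the epithelium. Defb14, Ltf and Slpi were lower in rescued than in mutant corneas, by at least 2.33-fold, 1.58-fold and 1.51-fold, and none of the 10 genes was called higher. Of the 10 genes, 3 were called, beside 13.3% of all genes, with 3 lower beside 6.88% of all genes and 0 higher beside 6.46%. Of the 3, 1 was called with at least a 2-fold difference, beside 1.41% of all genes. At an unadjusted p under 0.05 (limma), 2 genes were higher and 4 were lower. The share of all genes at that threshold was not taken, so these 2 counts have no background beside them. The rescued pools all lay below the mutant pools in 4 genes, beside 17.1% of all genes, and above them in 2, beside 15.1%, together 6 of 10 beside 32.2%. The comparisons of mutant with WT and of rescued with mutant share the mutant pools, so their values are given side by side and not related to each other by a test.

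Defb14 had the largest difference among the genes called here. Its rescued pools measured 6.04, 5.83 and 5.66, all below the mutant pools (log2 difference −1.22, SE 0.16, adjusted p = 0.000961). They overlapped the WT pools, where the highest was 5.79, and the log2 difference from WT was 0.41 (95% interval 0.06 to 0.76, adjusted p = 0.125). Without WT replicate 3 that difference was 0.59 (adjusted p = 0.0234).

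Ltf measured 10.00, 9.72 and 9.50 in the rescued pools, all below the lowest mutant pool at 10.02 and all above WT. The log2 difference from mutant was −0.66 (SE 0.18, adjusted p = 0.039). Slpi measured 7.83, 8.25 and 7.90, and its highest rescued pool lay just below the lowest mutant pool, at 8.25 against 8.27 (log2 difference −0.60, SE 0.16, adjusted p = 0.0346). Both calls were close to the threshold. The adjusted p of Ltf ranged from 0.00926 to 0.134 over the alternatives and rose above 0.05, so that the call was lost, without WT replicate 1 or 2, mutant replicate 1 or 3, or rescued replicate 2 or 3. That of Slpi ranged from 0.0101 to 0.112 and rose above 0.05 without any 1 of the WT pools, mutant replicate 1 or 3, or rescued replicate 1 or 3. In a fit of the 6 mutant and rescued arrays alone neither gene was called (adjusted p = 0.0698 for Ltf and 0.078 for Slpi).

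Lcn2 measured 10.09, 10.02 and 9.41 in the rescued pools, below each mutant pool and above each WT pool. Its log2 difference from mutant was −1.06 (95% interval −1.78 to −0.35), and it did not pass over all genes (adjusted p = 0.057). It passed without WT replicate 3 (adjusted p = 0.00478) or WT replicate 2 (0.0415), in the same fit of 6 arrays alone (0.00952), and when only genes at or above the median or the 25th percentile of all rows were tested (0.0311 and 0.0417). The adjusted p ranged from 0.00478 to 0.183 over the alternatives.

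Pglyrp1 and Defb1, both called between mutant and WT, were not called between rescued and mutant corneas. Pglyrp1 measured 12.75, 12.52 and 12.42 in the rescued pools (log2 difference −0.11, 95% interval −0.34 to 0.11, adjusted p = 0.532). Rescued replicate 1 lay just above the mutant range of 12.61 to 12.74, and rescued replicates 2 and 3 lay below it. Defb1 measured 9.78, 9.95 and 10.13, overlapping the mutant pools (log2 difference 0.33, −0.01 to 0.68, adjusted p = 0.204). Whether their step differs from that of Defb14 was not tested.

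Among the genes with low signals, Bpifa1 and Pigr had rescued pools that all lay above the mutant pools, with log2 differences of 0.25 (adjusted p = 0.0843) and 0.25 (adjusted p = 0.113). Reg3g and Camp had log2 differences of −0.29 (adjusted p = 0.281) and −0.09 (adjusted p = 0.521), with overlapping pools.

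**Figure D2:**
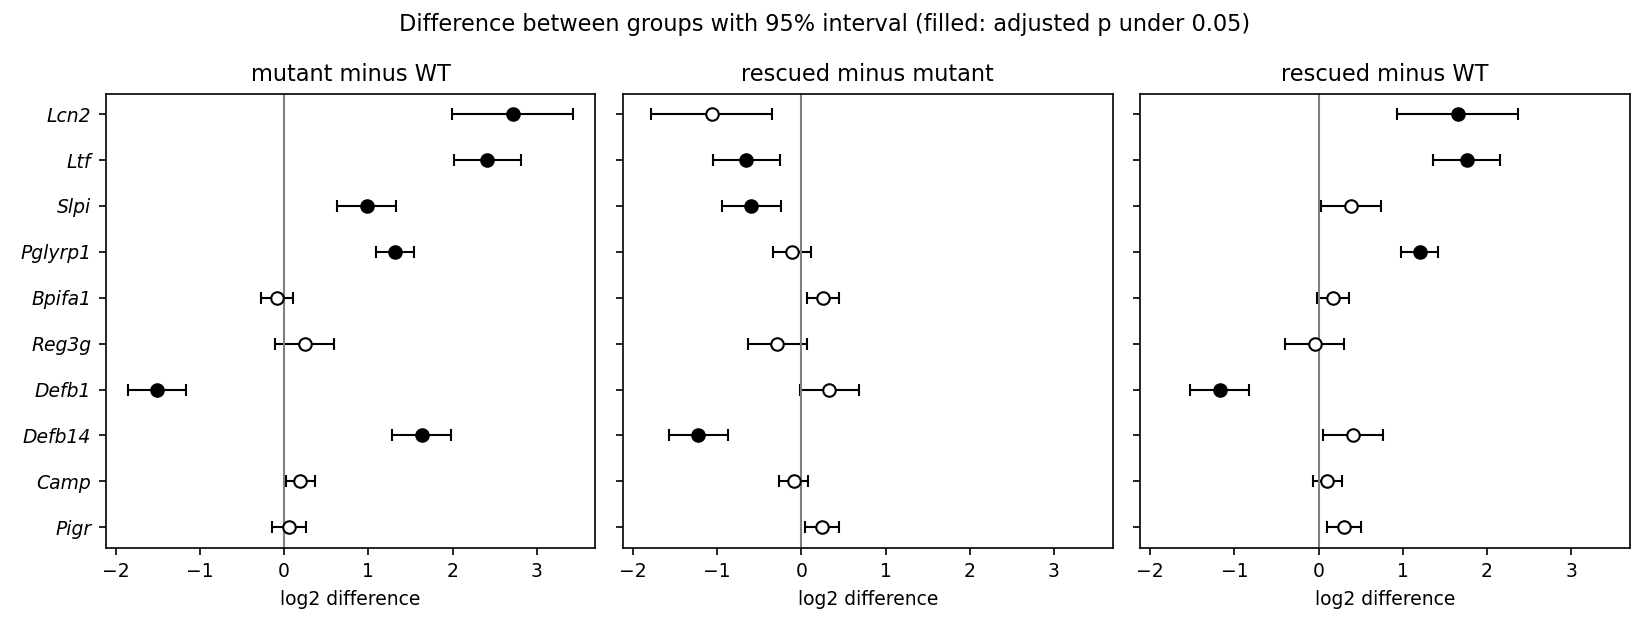
Log2 difference of each of the 10 genes (horizontal axis) in the 3 comparisons, with 95% intervals of the limma fit over 9 arrays; filled points have an adjusted p under 0.05. Filled points number 6 between mutant and WT, 3 between rescued and mutant and 4 between rescued and WT.

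Rescued corneas were last compared with WT to ask what stayed different. Ltf, Lcn2 and Pglyrp1 were higher in rescued than in WT corneas, by 3.38-fold (adjusted p = 0.000307), 3.14-fold (adjusted p = 0.00866) and 2.3-fold (adjusted p = 0.000104), and Defb1 was 2.26-fold lower (adjusted p = 0.0013). These 4 genes of 10 stand beside 13.7% of all genes called, with 3 of 10 higher beside 6.28% and 1 of 10 lower beside 7.43%. All 4 differed at least 2-fold, beside 1.68% of all genes. Rescued and WT pools did not overlap in 6 of the 10 genes, beside 31.6% of all genes: rescued pools lay above in 5, beside 13.4%, and below in 1, beside 18.2%. Slpi had a log2 difference of 0.39 (0.03 to 0.74, adjusted p = 0.148), and all its rescued pools lay above WT. Pigr measured 6.60, 6.68 and 6.54 in WT and 6.85, 6.82 and 7.06 in rescued pools, which did not overlap (log2 difference 0.30, adjusted p = 0.0565). Its adjusted p was 0.0432 without mutant replicate 2 and 0.0394 when only genes at or above the 25th percentile of all rows were tested. The log2 differences of Bpifa1, Reg3g and Camp were 0.17, −0.04 and 0.10, none of them called.

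Other genes of antimicrobial defence were read from a list of 37 measured effectors without the 10 genes and without defensins. Between mutant and WT, 10 were higher, 1 was lower and 26 did not pass, with a median log2 difference of 0.06. Of all genes, 31.6% were called in this comparison, 15.1% higher and 16.5% lower. Chil1, the gene for a chitinase-like protein, was 25.1-fold higher, and Saa3, the gene for an acute-phase serum amyloid protein, was at least 12.4-fold higher. S100a7a, the gene for a psoriasin-like S100 protein of keratinocytes, was the lower gene. It measured 10.11, 9.85 and 9.95 in WT, 7.45, 6.85 and 7.73 in mutant and 9.91, 10.08 and 10.40 in rescued pools. The mutant pools thus lay 6.16-fold under WT (adjusted p = 1.19e-05) and the rescued pools 6.89-fold over the mutant (adjusted p = 4.72e-05), with no call between rescued and WT (log2 difference 0.16, adjusted p = 0.687).

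Between rescued and mutant corneas 5 of the 37 effectors were lower and 1 was higher, with a median log2 difference of −0.04. Of all genes, 6.88% were lower and 6.46% higher. S100a9 and S100a8, whose products form calprotectin, were lower by at least 2.94-fold and 1.91-fold, and Wfdc18, which belongs to the same protein family as Slpi, was 1.82-fold lower. Between rescued and WT 6 were higher and 0 lower (limma; 1 lower at an unadjusted p under 0.05), with a median log2 difference of 0.08. Of all genes, 6.28% were higher and 7.43% lower. The largest were Chil1, 14.1-fold higher in rescued than in WT corneas (adjusted p = 4.68e-05), and Saa3, at least 4.97-fold higher (adjusted p = 0.00824). Lyz2, the gene for the lysozyme of macrophages, exceeded WT by 3.32-fold in mutant and 3.48-fold in rescued corneas. Pglyrp4 was 3.31-fold higher in rescued than in WT corneas.

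Genes upstream of antimicrobial proteins (cytokines, their receptors, pattern receptors, and factors of the NF-kB, C/EBP and STAT families) numbered 38 measured. Between mutant and WT, 25 were higher and 2 were lower, with a median log2 difference of 0.42, and 22 were higher and 1 was lower between rescued and WT, with a median of 0.27. Of all genes, 15.1% were higher and 16.5% lower between mutant and WT. Between rescued and WT these shares were 6.28% and 7.43%. Il1b was at least 6.68-fold and Il1f9, the gene for IL-36 gamma, 4.91-fold higher in mutant corneas. Il17a, Il17f and Il22 had log2 differences of 0.16, −0.08 and 0.10 and did not pass, while Il17ra and Il22ra1, which encode receptor chains, were 1.27-fold and 1.5-fold higher. Between rescued and mutant, 8 were lower and 2 were higher, with a median of −0.11, beside 6.88% and 6.46% of all genes. Tlr2, the gene for a receptor of bacterial lipoproteins, was 1.88-fold lower (adjusted p = 0.00257). Cebpb, the gene for a C/EBP factor, exceeded WT by 1.62-fold in mutant corneas, and its rescued mean lay 1.47-fold under the mutant mean (adjusted p = 0.000101 and 0.0015).

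**Figure D3:**
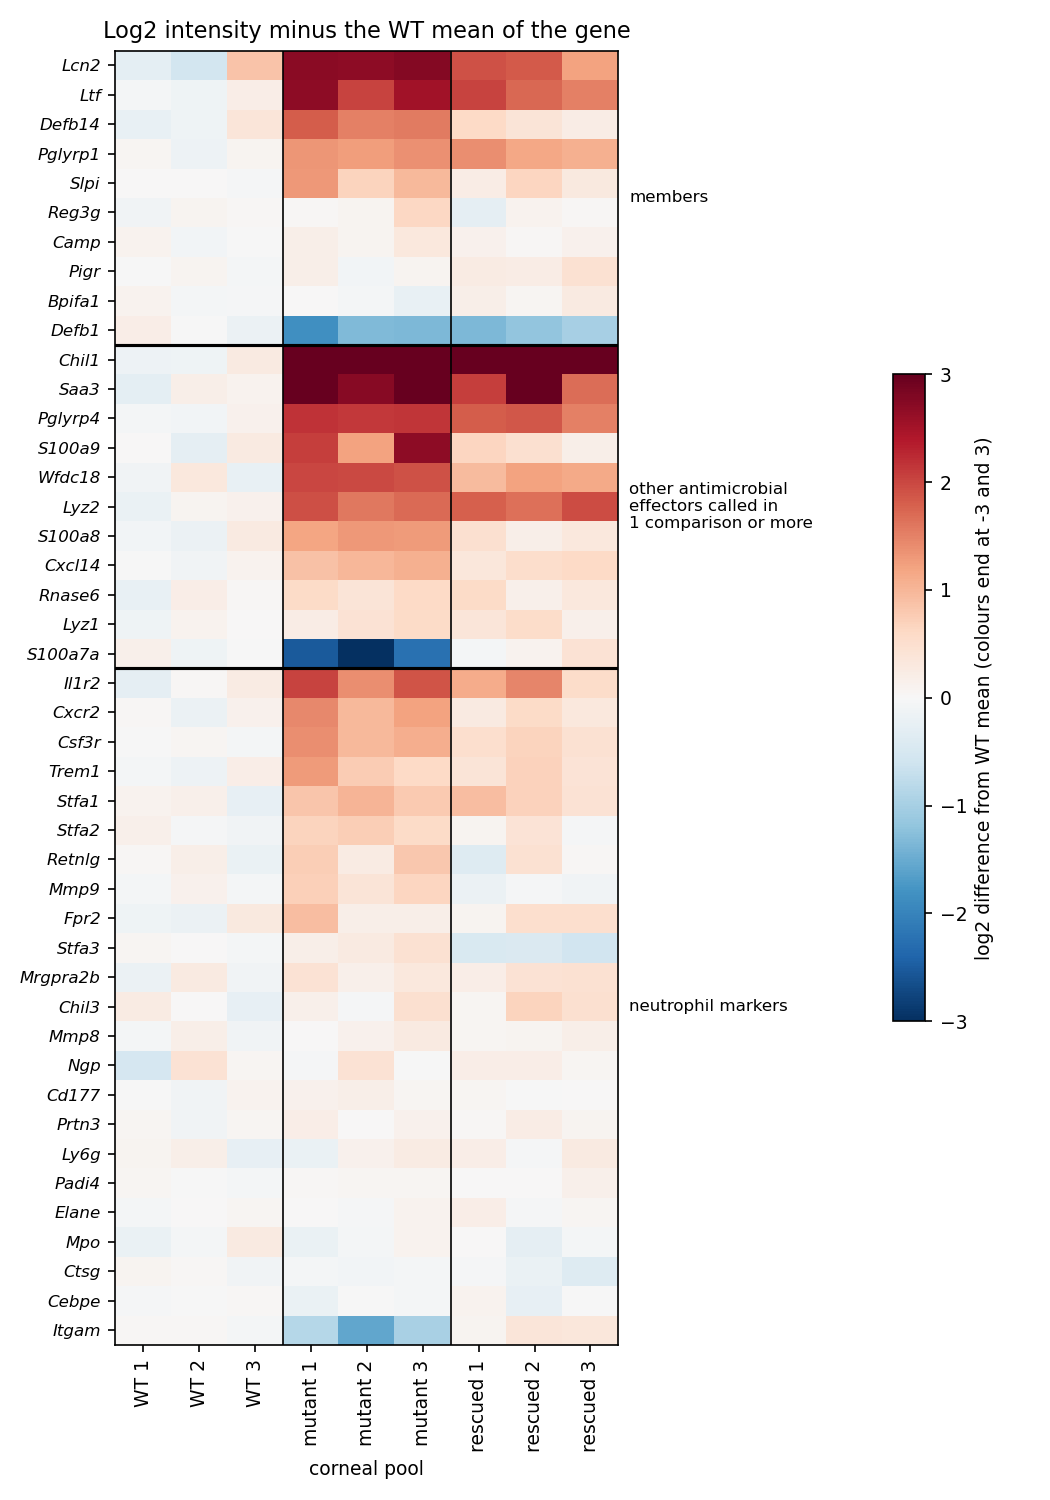
Log2 intensity minus the WT mean of each gene (colour, ending at −3 and 3) in the 9 pools (columns), for the 10 genes, for the 11 other antimicrobial effectors called in at least 1 comparison and for 23 neutrophil markers other than S100a8 and S100a9. Lcn2, Ltf and Pglyrp1 are red in mutant and rescued pools, Defb1 is blue in both, and S100a7a is blue in the mutant pools.

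Leukocyte markers moved beside these genes, of which Lcn2, Ltf, Camp and Pglyrp1 are also made by neutrophils. Of 25 neutrophil markers other than the 10 genes, 10 were higher and 1 was lower in mutant than in WT corneas, with a median log2 difference of 0.30, and between rescued and mutant 7 were lower and 1 higher. Of all genes, 15.1% were higher and 16.5% lower between mutant and WT, and 6.88% lower and 6.46% higher between rescued and mutant. Between rescued and WT, 3 of the 25 were higher and 1 was lower, with a median log2 difference of 0.15. The shares of all genes there were 6.28% higher and 7.43% lower. The mean log2 intensity of the 25 was 6.43 to 6.48 in WT, 6.81 to 6.97 in mutant and 6.62 to 6.73 in rescued pools. Il1r2, Cxcr2 and Csf3r were at least 3.41-fold, 2.3-fold and 2.21-fold higher in mutant corneas. The granule genes Elane, Mpo, Ctsg and Ngp and the surface marker Ly6g had means of 6.34 or less in every group and were not called in any comparison. Of 12 macrophage markers all 12 were higher in mutant than in WT and 9 in rescued than in WT corneas, with medians of 1.21 and 0.88. The shares of all genes called higher were 15.1% and 6.28%. The mean of the 12 was 6.94 to 7.06 in WT, 8.05 to 8.66 in mutant and 7.72 to 8.19 in rescued pools. The part of leukocytes in the values of Lcn2, Ltf and Pglyrp1 was not tested.

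Tissue next to the cornea can also carry tear protein genes. The counts of this paragraph stand beside 15.1% of all genes higher and 16.5% lower in mutant than in WT. In rescued corneas 6.46% of all genes were higher and 6.88% lower than in mutant, and 7.43% were lower than in WT. Of 15 lacrimal gland markers 2 were higher and 3 lower in mutant than in WT corneas (median −0.05), and 12 of the 15 lay below 6.77 in every group. The 2 higher genes were the secretoglobin genes Scgb2b2 and Scgb2b27, by at least 7.4-fold and 4.62-fold, and Car6 was among the lower. The mean of the 15 was 5.96 to 6.12 in WT, 6.17 to 6.36 in mutant and 5.99 to 6.20 in rescued pools, so that the mutant pools lay above WT. This mean includes the 2 secretoglobin genes, and the median shows no rise of the list as a whole. Of 12 meibomian and sebaceous gland markers 1 was higher and 1 was lower (median 0.01). Of 18 conjunctiva and goblet cell markers 9 were higher and 2 lower (median 0.35), the largest being the simple epithelial keratin genes Krt18 and Krt8. Of the goblet cell genes Muc5ac passed, with a log2 difference of 0.45 at means below 6.77, and Tff1, Tff2 and Spdef did not. Of 11 genes of immunoglobulin transport and plasma cells 3 were higher and 0 lower (limma; also 0 lower at an unadjusted p under 0.05). Jchain, which encodes the joining chain of the polymeric immunoglobulins that Pigr carries, exceeded WT by at least 2.89-fold in mutant corneas and was lower again by at least 2.23-fold in the rescued. Of 10 nasal and airway markers 1 was lower, and of 4 red cell and platelet markers 1 was higher. Markers of the cornea itself also moved: of 8 corneal epithelial genes 6 were lower and 1 higher in mutant than in WT, and 6 were higher and 1 lower in rescued than in mutant corneas. Their mean was 12.48 to 12.50 in WT, 11.99 to 12.01 in mutant and 12.44 to 12.52 in rescued pools. Of 9 keratocyte and endothelial markers 7 were lower in mutant and 4 in rescued corneas than in WT. The part of these tissues in the values of the 10 genes was not tested.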

How the data were processed

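Total RNA of 9 corneal pools was amplified with the Ambion WT Expression kit and labelled with the Affymetrix WT Terminal Labeling kit, per the labels' protocols. The authors deposited log2 intensities on a scale common to the arrays, by a method not stated in the labels or files. The base, 2, was inferred from the values, which span 2.14 to 14.3. Of 41345 rows, 23521 had exactly 1 symbol in the platform annotation, and the brightest row per gene over 9 arrays gave 22180 genes, without any intensity filter. limma (3.58.1, R 4.3.3) was fitted over all 9 arrays with 1 mean per group, contrasts and eBayes; tests were two-sided, and calls needed an adjusted p (Benjamini-Hochberg) below 0.05. Intervals are 95% intervals of that fit. The fit was also run on simulated data, with noise drawn independently for each gene and array. Those data held no effects shared within a pool, so the run says nothing about such effects here. With 3 arrays a group, their number limits the precision.

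The 10 genes, the 14 gene lists and the tests were chosen with earlier results of these data known, and no list is independent evidence. Named were the 10 genes, Dstn, Srf, the called genes of each list with the largest differences (up to 4), and the 5 genes of most like pattern for each of Lcn2, Ltf and Slpi. Other genes (Pglyrp2, Pglyrp3, Il17a, Il17f, Il22, Il17ra, Il22ra1, Csf3r, Elane, Mpo, Ctsg, Ngp, Ly6g, Muc5ac, Tff1, Tff2, Spdef, Krt12, Aldh3a1) were chosen after their values were seen. 1 listed symbol whose only match was a synonym of another gene was left out. Alternatives were other scalings, intensity filters, row means, variance options, array weights, the 6 arrays compared, the replicate number as a block, stricter calls, each array left out and, added after seeing the data, a Y-linked covariate. Nothing in the labels says that the replicate numbers pair the pools. Correlations of deviations between pools of the same number were −0.02 to 0.06, over mostly unrelated genes, and cannot exclude a shared origin. Replicate 2 had the highest Y-linked mean in each group (9.77, 9.77 and 9.11 in WT, mutant and rescued). Promoter windows are from RefSeq (GRCm38.p6); no build is named for the array. Plots used matplotlib 3.10.9 (Python 3.11.15).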

Additional observations from a re-analysis of the deposited data

How the results depend on the processing

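The counts of the 10 genes called between mutant and WT stayed at 4 or 5 higher and 1 lower under every alternative, and those between rescued and WT at 3 or 4 higher and 1 lower. The count lower in rescued than in mutant corneas was 3; it was 1 at an adjusted p under 0.01, 1 with a 2-fold minimum, and 1 to 3 when 1 array was left out. It was 1 without WT replicate 1, mutant replicate 1, mutant replicate 3 or rescued replicate 3, where Defb14 alone was called. Without WT replicate 1 the log2 differences of Ltf and Slpi stayed at −0.66 and −0.60. Their SEs rose from 0.178 to 0.1879 and from 0.1567 to 0.1665. Why the other left-out arrays changed the calls was not tested. The count was 4 with the 25th percentile filter, where Lcn2 was added. It was 3 with the median filter, as Lcn2, Ltf and Slpi, since Defb14 was not tested there, and 2 with the 6 arrays alone, as Defb14 and Lcn2. Defb14 kept its call in this comparison in all 19 alternatives that measured it. Of the uncalled differences 2 changed sign when 1 array was left out. Pigr between mutant and WT ranged from −0.003 (without mutant replicate 1) to 0.132, and Reg3g between rescued and WT from −0.119 to 0.0645 (without rescued replicate 1). With the replicate number as a block, 2 of the 10 genes were lower in rescued than in mutant corneas, since Slpi had an adjusted p of 0.0711 (limma), and no other call among the 10 genes changed. With the Y-linked covariate Slpi had an adjusted p of 0.0505 and Lcn2 0.0317 in that comparison, and no other call among the 10 genes changed. Filters on intensity removed members with low signals from the test.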

Other observations

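Secretoglobin genes, which encode small secreted proteins of glands and mucosa, stood out among the lacrimal gland markers. Scgb2b27 measured 3.71, 4.36 and 4.16 in WT, 6.33, 6.30 and 6.22 in mutant and 4.69, 5.36 and 4.77 in rescued pools, so that the 3 groups did not overlap. Mutant corneas exceeded WT by at least 4.62-fold (limma, adjusted p = 2.39e-05) and the rescued by at least 2.54-fold (adjusted p = 0.00176). Scgb2b2 exceeded WT by at least 7.4-fold in mutant corneas (adjusted p = 0.00404), with mutant pools spread from 5.37 to 8.03. Car6, the gene for a secreted carbonic anhydrase of saliva and tears, measured 6.44, 6.63 and 7.06 in WT, 5.38, 5.72 and 5.56 in mutant and 5.42, 5.47 and 5.72 in rescued pools. Its mutant and rescued pools both lay below all WT pools, and the log2 difference between rescued and mutant was −0.02 (adjusted p = 0.964). These genes have close relatives in the genome, so which of them a probe set reads is uncertain.

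The genes with the pattern most like that of Lcn2 over the 9 arrays, among 12695 genes with a mean at or above 6.77, were Tnfrsf12a (Pearson r 0.990), Cebpd (0.986), Mboat2 (0.982), Fes (0.980) and Id3 (0.979). For Ltf they were Apobr (0.995), Snx4, B3galt5, Skap2 and Nin, and for Slpi Itga5 (0.995), Ccdc86, Cks1b, Nop2 and Ugcg. The 9 arrays fall into 3 groups that differ in many genes, so a high r here mostly reports the same order of group means and is a description only. Cebpd encodes a C/EBP factor and had means of 6.79, 7.66 and 7.22 in WT, mutant and rescued corneas.

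Some pools were high or low for several of the 10 genes at once. WT replicate 3 was the highest WT pool for Lcn2, Ltf, Pglyrp1 and Defb14 and the lowest for Defb1. Rescued replicate 1 was the highest rescued pool for Lcn2, Ltf, Pglyrp1 and Defb14 and the lowest for Defb1, while rescued replicate 3 was the lowest for those 4 and the highest for Defb1. Slpi, also called between mutant and WT, did not follow this order. Its lowest WT pool was replicate 3 (7.58). Its lowest rescued pool was replicate 1 (7.83) and its highest was replicate 2 (8.25). Srf measured 9.14, 9.45 and 8.45 in rescued replicates 1, 2 and 3. Whether these genes vary with Srf within groups was not tested.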
